A study of Mus musculus with 6 samples.

Results

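The genes described here encode 10 enzymes of bile acid synthesis, Cyp7a1, Cyp8b1, Cyp27a1, Cyp7b1, Hsd3b7, Akr1d1, Amacr, Acox2, Slc27a5 and Baat. They were taken from 19938 genes measured in the series, as the genes for which a probe set is annotated with the symbol of that gene and no other, and each of the 10 had 1 such probe set. The data came from livers of 3 weaned mice aged 3.5 weeks that carry the CyclinB1-GFP transgene, a green fluorescent reporter named after the cyclin that accumulates before mitosis. Each liver was perfused and its cells were separated by fluorescence-activated cell sorting into GFP-positive cells, which the labels call replicating, and GFP-negative cells, which they call quiescent. Both groups therefore carry the transgene and share the same livers, untreated as far as the labels say, and there were 3 GFP-positive and 3 GFP-negative Affymetrix arrays. The promoter that drives the reporter, and the sex of the mice, are not given in the labels.

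Hepatocytes make bile acids from cholesterol. In the classical route cholesterol is hydroxylated first on the ring, by Cyp7a1 in the endoplasmic reticulum, and in the alternative route first on the side chain, by Cyp27a1 in mitochondria, after which Cyp7b1 hydroxylates the ring. Further enzymes remodel the ring and shorten the side chain, partly in peroxisomes, and the product is coupled to taurine or glycine before it is secreted into bile. In mice the nuclear receptors FXR and SHP hold synthesis back when bile acids accumulate, and HNF4A and LRH-1 act on promoters of the pathway.

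RefSeq promoter windows (GRCm38.p6) were matched for 5 of the 10 genes, Cyp8b1, Cyp27a1, Hsd3b7, Akr1d1 and Acox2. The 250 bases before the transcription start are shown for Cyp8b1, Cyp27a1 and Hsd3b7, since their levels followed each other most closely over the 6 arrays, as described further on. Capitals mark the motifs searched for on both strands, which were CAAGGNCA (the site of LRH-1, the product of Nr5a2), CAAAGTCCA (HNF4A), TATAAA (the TATA box) and TTTGAA (the cell cycle genes homology region).
Cyp8b1 (chr9:121916306-121916555, minus strand): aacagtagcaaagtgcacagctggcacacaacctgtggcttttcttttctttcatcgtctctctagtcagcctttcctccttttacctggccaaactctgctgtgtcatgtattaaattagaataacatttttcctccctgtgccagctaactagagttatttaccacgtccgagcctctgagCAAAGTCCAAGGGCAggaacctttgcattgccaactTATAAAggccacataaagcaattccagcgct
Cyp27a1 (chr1:74713285-74713534, plus strand): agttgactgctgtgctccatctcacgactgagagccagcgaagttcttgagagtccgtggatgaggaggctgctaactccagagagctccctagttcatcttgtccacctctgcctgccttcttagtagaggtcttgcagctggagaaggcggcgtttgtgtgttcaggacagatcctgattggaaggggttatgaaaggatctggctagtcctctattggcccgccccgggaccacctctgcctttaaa
Hsd3b7 (chr7:127800359-127800608, plus strand): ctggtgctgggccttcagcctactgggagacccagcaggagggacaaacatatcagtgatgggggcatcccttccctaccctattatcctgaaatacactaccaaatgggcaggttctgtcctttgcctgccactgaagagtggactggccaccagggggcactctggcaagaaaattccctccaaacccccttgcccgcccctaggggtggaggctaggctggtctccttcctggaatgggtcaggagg
The Cyp8b1 window held the HNF4A motif at bases -67 to -59 and the LRH-1 motif at bases -60 to -53, counted back from the start, so these 2 motifs overlapped, and it held a TATA box at bases -31 to -26. Of 32851 RefSeq windows of the same length, 5.53% held the LRH-1 motif, 0.384% the HNF4A motif, 12.4% the TATA box and 16% the TTTGAA motif on either strand. The other windows, those of Cyp27a1, Hsd3b7, Akr1d1 and Acox2, held none of the 4 motifs as spelled here. A match is a run of letters and was not tested as a binding site.

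All values below are log2 intensities, and each difference subtracts the GFP-negative mean from the GFP-positive one and carries the standard error (SE) of limma, a linear model that shares variance information between genes, with p-values adjusted over all 19938 genes by the Benjamini-Hochberg method. A gene rose or fell where its adjusted p was below 0.05. Array medians lay between 4.60 and 4.74, and every value of the 10 genes lay above them. As a check of the sort, 8 of 8 proliferation genes, among them Cdk1 and Top2a, rose in GFP-positive cells, by 2.49 to 4.71. Arrays of the same replicate number were taken to come from 1 mouse. Xist, the RNA of the inactive X chromosome, read 9.80 for GFP-positive cells of number 2, 9.03 for its GFP-negative cells and between 3.73 and 4.04 on the other 4 arrays, and the Y-linked gene Eif2s3y was at 2.24 and 1.98 there and between 6.78 and 7.31 elsewhere. By these sex-linked genes number 2 read as female and numbers 1 and 3 as male, though the labels state no sex. Results without number 2 thus also leave out the only number that read as female.

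Of the 10 genes, 1 fell and none rose. Cyp7a1 fell, and Cyp8b1, Cyp27a1, Cyp7b1, Hsd3b7, Akr1d1 and Slc27a5 had differences between -0.45 and -0.75 that did not pass, while Amacr and Acox2 lay near 0 and Baat lay above it. Over all genes 0.115% were called lower and 1.55% called higher. In 5 of the 10 genes every GFP-positive value lay below every GFP-negative value, against 6.98% of all genes. The median difference of the 10 was -0.47 (-0.27 without number 2), against -0.03 for all genes, and 9 of 10 lay below 0, against 55.72% of all genes. Counts of genes without overlap and of genes below 0 were also high in other hepatocyte lists described further on. For genes of the zone around the central vein they were 11 and 15 of 16. For hepatocyte markers they were 3 and 8 of 9, and for genes of the zone around the portal vein 0 and 5 of 12. The 10 genes were proposed with results of these data known, so these counts are a description. In RNA from sorted fractions, fewer cells expressing a gene and less of its RNA per cell cannot be told apart.

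**Figure D1:**
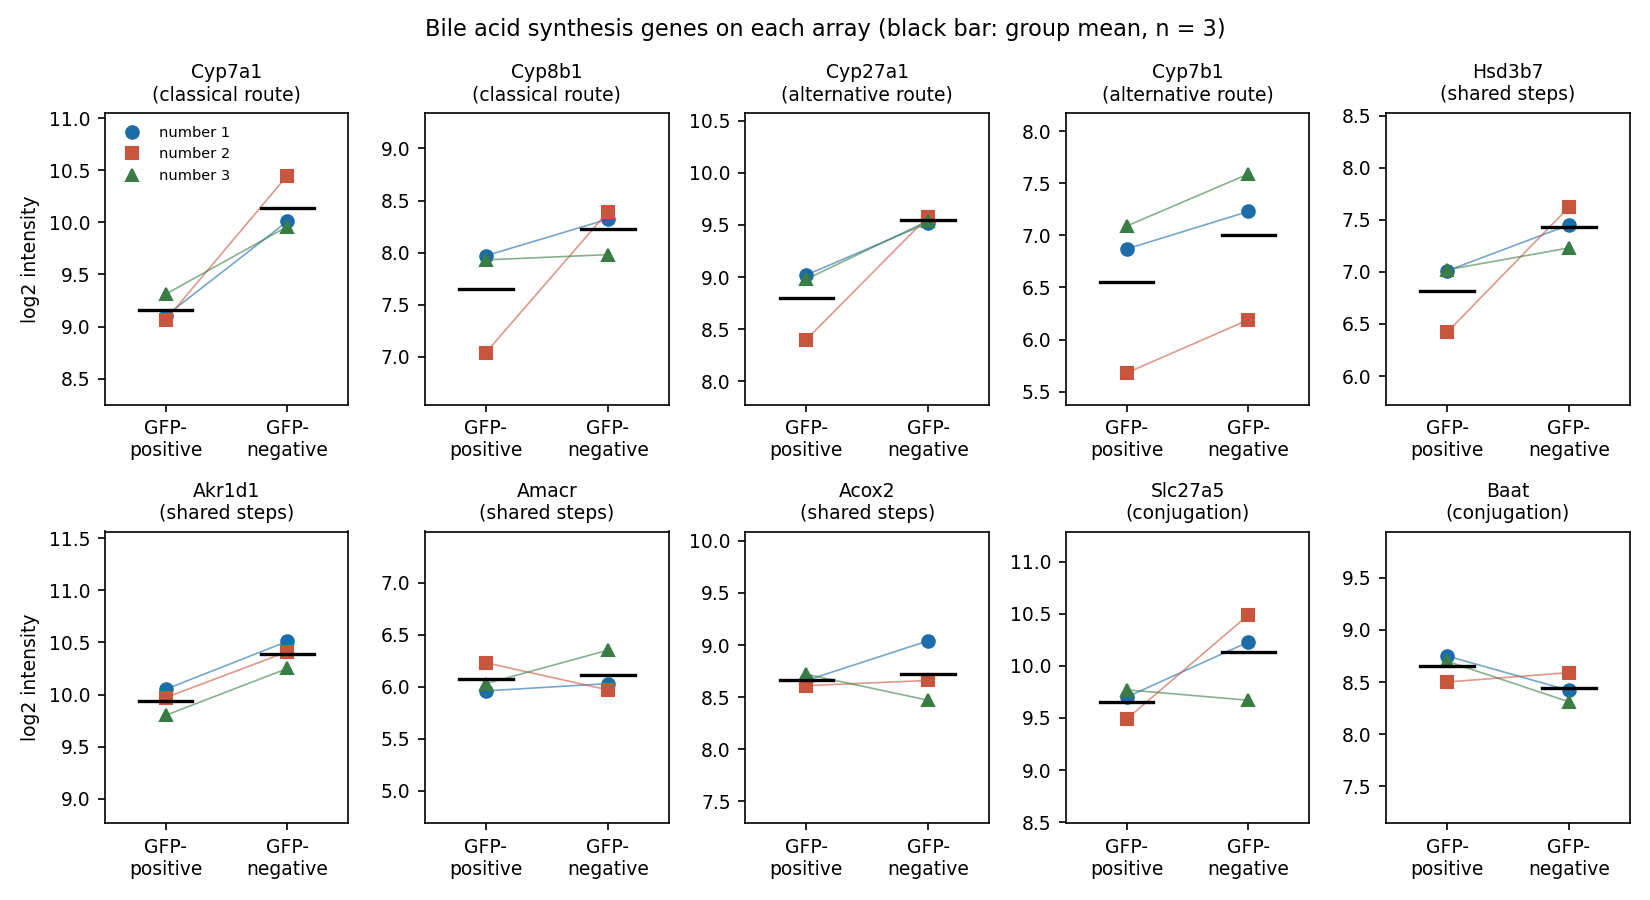
Log2 intensity (vertical axes, each spanning the same range) of the 10 genes in GFP-positive and GFP-negative cells, with a point per array, lines joining arrays of the same replicate number and black bars at the group means. Cyp7a1 and Cyp27a1 show a clear gap between the groups, Cyp7b1 is low in number 2 of both groups, and Baat is the single gene with a higher GFP-positive mean.

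The classical route begins with Cyp7a1 (probe set 10511375), whose product is the rate-limiting cholesterol 7-alpha-hydroxylase. Cyp7a1 stood at 9.10, 9.06 and 9.31 in GFP-positive cells of numbers 1, 2 and 3, against 10.01, 10.45 and 9.96 in GFP-negative cells. The highest GFP-positive value lay 0.642 below the lowest GFP-negative one, so the groups did not overlap. The mean was 9.16 ± 0.14 for GFP-positive cells and 10.14 ± 0.27 for GFP-negative cells (SD, n = 3 each). The difference was -0.98 ± 0.17, 1.97-fold lower in GFP-positive cells (adjusted p = 0.017). The fall was present in each number, at -0.91, -1.39 and -0.64. The call did not survive the loss of GFP-positive 1 (adjusted p = 0.080), of GFP-positive 2 (adjusted p = 0.068) or of both arrays of number 2 (difference -0.78, adjusted p = 0.098), nor testing all probe sets alone (adjusted p = 0.084).

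Cyp8b1 (probe set 10597875) encodes the sterol 12-alpha-hydroxylase that directs the classical route to cholic acid. It stood at 7.97, 7.04 and 7.93 in GFP-positive cells, against 8.32, 8.39 and 7.98 in GFP-negative cells of the same numbers. The groups were separated by 0.005 and no more, and a single array, GFP-positive 2, lay well below the others. The difference of -0.58 ± 0.25 did not pass (adjusted p = 0.53), and its 95% interval ran from -1.14 to -0.03. Between arrays of 1 number it was -0.35, -1.35 and -0.05, and without both arrays of number 2 it was -0.20.

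In the alternative route Cyp27a1 (probe set 10347481), the mitochondrial sterol 27-hydroxylase gene, had the second largest difference of the 10. It stood at 9.02, 8.40 and 8.98 in GFP-positive cells, against 9.52, 9.58 and 9.54 in GFP-negative cells. The GFP-negative values were nearly equal and all lay above the GFP-positive ones, by at least 0.501. The difference was -0.75 ± 0.18, with an interval of -1.15 to -0.34, and did not pass over all genes (adjusted p = 0.10, unadjusted p = 0.0023). It was -0.50, -1.18 and -0.56 in numbers 1, 2 and 3, and -0.53 without number 2.

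Cyp7b1 (probe set 10497381), the oxysterol 7-alpha-hydroxylase gene, is expressed more in male than in female adult mouse liver. It stood at 6.87, 5.68 and 7.09 in GFP-positive cells, against 7.23, 6.19 and 7.59 in GFP-negative cells. Both arrays of number 2, the number with high Xist, were lower than the other 4, so the groups overlapped widely. The mice here were 3.5 weeks old and only number 2 read as female, so sex cannot be told apart from other differences between mice. Within each number the GFP-positive value was the lower one, by -0.35, -0.52 and -0.50. The difference of -0.46 ± 0.41 did not pass (adjusted p = 0.87). With the replicate number as a block its SE was 0.15, and the adjusted p was 0.33.

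Of the 4 genes of shared steps that follow both routes, Hsd3b7 and Akr1d1 had GFP-positive values below all GFP-negative ones and Amacr and Acox2 did not. Hsd3b7 (probe set 10557782) encodes the dehydrogenase that oxidises the ring after 7-alpha-hydroxylation. It stood at 7.01, 6.42 and 7.02 in GFP-positive cells, against 7.45, 7.62 and 7.23 in GFP-negative cells, a difference of -0.61 ± 0.19 (adjusted p = 0.28). The groups did not overlap, and number 2 again had the widest gap, at -1.20 against -0.44 and -0.20 in numbers 1 and 3. With number 2 left out the difference of Hsd3b7 was -0.32 (adjusted p = 0.59). Akr1d1 (probe set 10537306), the gene of the reductase that sets the bent ring shape of bile acids, stood at 10.05, 9.97 and 9.80 in GFP-positive cells, against 10.51, 10.41 and 10.25 in GFP-negative cells. The groups did not overlap, and the difference of -0.45 ± 0.14 (adjusted p = 0.28) was nearly the same in each number, at -0.46, -0.44 and -0.45. With number 2 left out it was -0.46.

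Amacr (probe set 10423090), the racemase gene that prepares the side chain for shortening, ranged from 5.96 to 6.23 in GFP-positive cells and from 5.97 to 6.35 in GFP-negative cells. Acox2 (probe set 10417544), the peroxisomal oxidase gene that acts on the side chain, ranged from 8.61 to 8.72 in GFP-positive cells and from 8.47 to 9.04 in GFP-negative cells. In both genes the groups overlapped. The difference was -0.04 ± 0.16 for Amacr (95% interval -0.39 to 0.31) and -0.06 ± 0.17 for Acox2 (95% interval -0.44 to 0.32), and neither passed. The intervals include shifts in either direction within these bounds.

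The conjugation enzymes went apart in sign. Slc27a5 (probe set 10560045), which encodes the ligase that activates bile acids with coenzyme A, stood at 9.70, 9.49 and 9.77 in GFP-positive cells, against 10.23, 10.49 and 9.67 in GFP-negative cells. The groups overlapped through number 3, where the difference was 0.10, while it was -0.53 and -1.0 in numbers 1 and 2. The difference over all arrays was -0.48 ± 0.21 (adjusted p = 0.55), and -0.22 without number 2 (adjusted p = 0.79). Baat (probe set 10512895), the gene of the transferase that attaches the amino acid, stood at 8.75, 8.50 and 8.70 in GFP-positive cells, against 8.42, 8.59 and 8.31 in GFP-negative cells. Its groups overlapped through number 2, and the difference of 0.21 ± 0.15 did not pass (adjusted p = 0.80, interval -0.11 to 0.54).

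**Figure D2:**
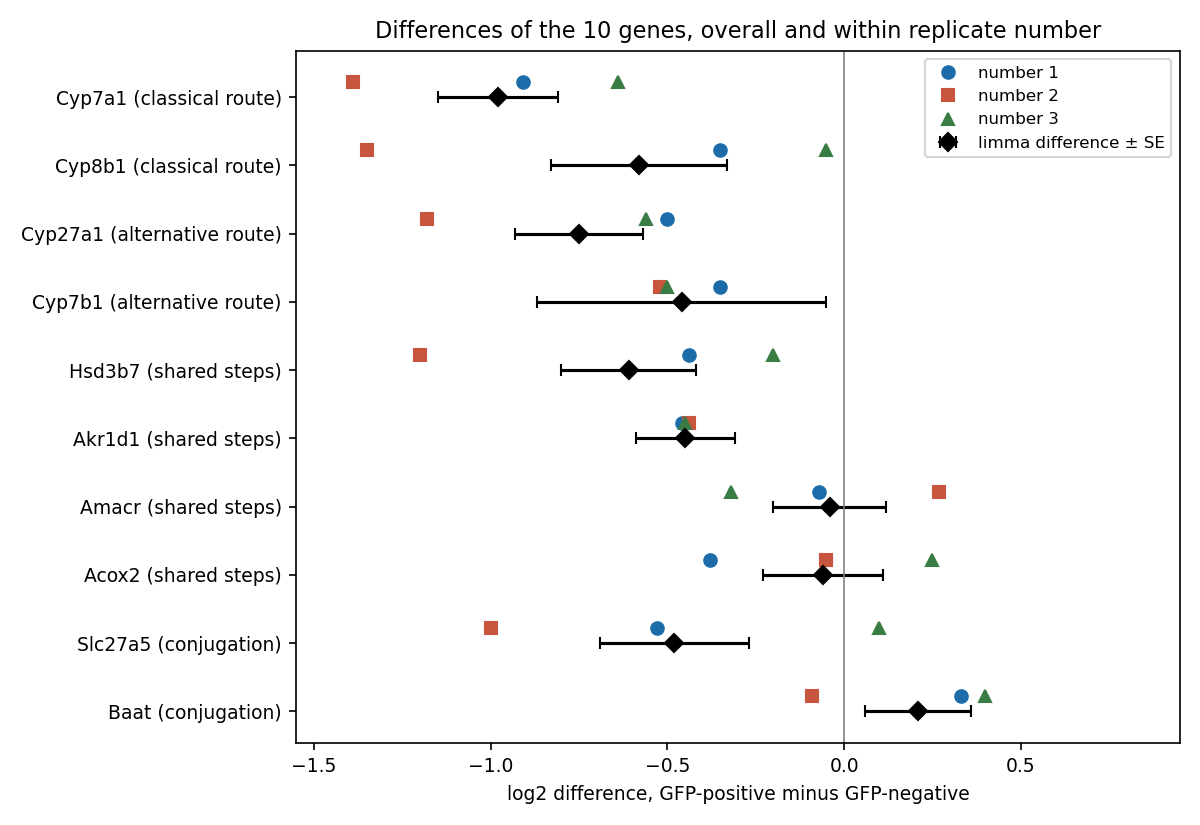
Log2 difference between GFP-positive and GFP-negative cells (horizontal axis) of the 10 genes, with black diamonds and bars for the limma difference ± SE and coloured points for the difference between arrays of 1 replicate number. Number 2 has the lowest difference in 7 of the 10 genes, and the 3 numbers nearly coincide for Akr1d1.

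Averaged by step of the pathway, the mean log2 difference was -0.78 for the classical route (Cyp7a1 and Cyp8b1), -0.60 for the alternative route (Cyp27a1 and Cyp7b1), -0.29 for the 4 shared ring and side chain enzymes and -0.13 for conjugation (Slc27a5 and Baat). In numbers 1, 2 and 3 the classical route differed by -0.63, -1.37 and -0.35 and the alternative route by -0.43, -0.85 and -0.53. The shared steps differed by -0.34, -0.35 and -0.18, and conjugation by -0.10, -0.54 and 0.25. In number 3 the alternative route thus lay below the classical one, the reverse of numbers 1 and 2. Without both arrays of number 2 the means were -0.49 for the classical route, -0.48 for the alternative route, -0.26 for the shared steps and 0.07 for conjugation. Without GFP-negative 2 alone the classical route was at -0.66 and the alternative route at -0.79, and without GFP-positive 2 alone they were at -0.61 and -0.28. The order of both routes thus changed with the arrays that were kept. The sign for conjugation turned without both arrays of number 2. Whether Cyp7a1 moved more than another enzyme was asked from the log2 ratio of the 2 genes within each array, for 3 pairs. The pairs were chosen with earlier results of these data known, and Cyp7a1 and Baat had the lowest and highest differences of the 10 genes. A wide shift between Cyp7a1 and Baat thus follows largely from that choice, and the pair values are a description. The ratio of Cyp7a1 to Baat was 0.35, 0.56 and 0.61 in GFP-positive cells, against 1.59, 1.86 and 1.65 in GFP-negative cells, a shift of -1.19 with no overlap. Its two-sided exact permutation p was 0.10, the smallest that 3 against 3 arrays allow, and 0.30 adjusted over the 3 pairs. The ratio of Cyp7a1 to Cyp27a1 shifted by -0.23 (exact permutation p = 0.40) and that of Cyp7a1 to Cyp7b1 by -0.53 (exact permutation p = 0.50), each with an adjusted p of 0.50. The groups overlapped in both pairs. Within numbers 1, 2 and 3 the ratio to Cyp27a1 shifted by -0.41, -0.21 and -0.08, that to Cyp7b1 by -0.56, -0.87 and -0.15 and that to Baat by -1.24, -1.30 and -1.04. All 3 numbers thus shifted the same way in each pair, and the two-sided exact sign-flip p over numbers, a test added after the data were seen, was 0.25 for each, the smallest that 3 numbers allow.

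Over the 6 arrays Cyp8b1 correlated with Hsd3b7 at Pearson r = 0.97, Cyp27a1 with Hsd3b7 at r = 0.96 and Cyp8b1 with Cyp27a1 at r = 0.91, and after the group means were subtracted these values were 0.98, 0.89 and 0.93. The values within groups leaned on a single array, GFP-positive 2. It read 7.04 for Cyp8b1, 8.40 for Cyp27a1 and 6.42 for Hsd3b7, against at least 7.93, 8.98 and 7.01 on the other GFP-positive arrays. Cyp7b1 correlated with Cyp7a1 at 0.21, and at -0.37 within groups. Baat correlated with Cyp7a1 at -0.45 and with Hsd3b7 at -0.14 over the 6 arrays, but at 0.78 and 0.94 within groups. The 6 points share livers in pairs and include both groups, so the values are a description. GFP-positive 2 was the lowest of the 6 arrays in 6 of the 10 genes, against 20.2% of all genes. GFP-negative 2 was the highest in 5 of the 10, against 16.61%. In other lists described further on, these counts were 6 and 3 of 9 hepatocyte markers and 8 and 3 of 17 further synthesis genes. They were 7 and 7 of 18 regulators, 8 and 6 of 16 genes of the central vein zone and 3 and 6 of 12 of the portal vein zone. Among 5829 other genes with a mean log2 intensity above 6, the 5 most like Cyp7a1 by Pearson r over the 6 arrays were Lbp (0.992), Tut7 (0.989), Eif4ebp2 (0.988), Tmem140 (0.987) and Acsl5 (0.986). Their differences ran from -0.34 ± 0.13 for Eif4ebp2 to -0.69 ± 0.14 for Tmem140, smaller than that of Cyp7a1, and none of the 5 passed over all genes.

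**Figure D3:**
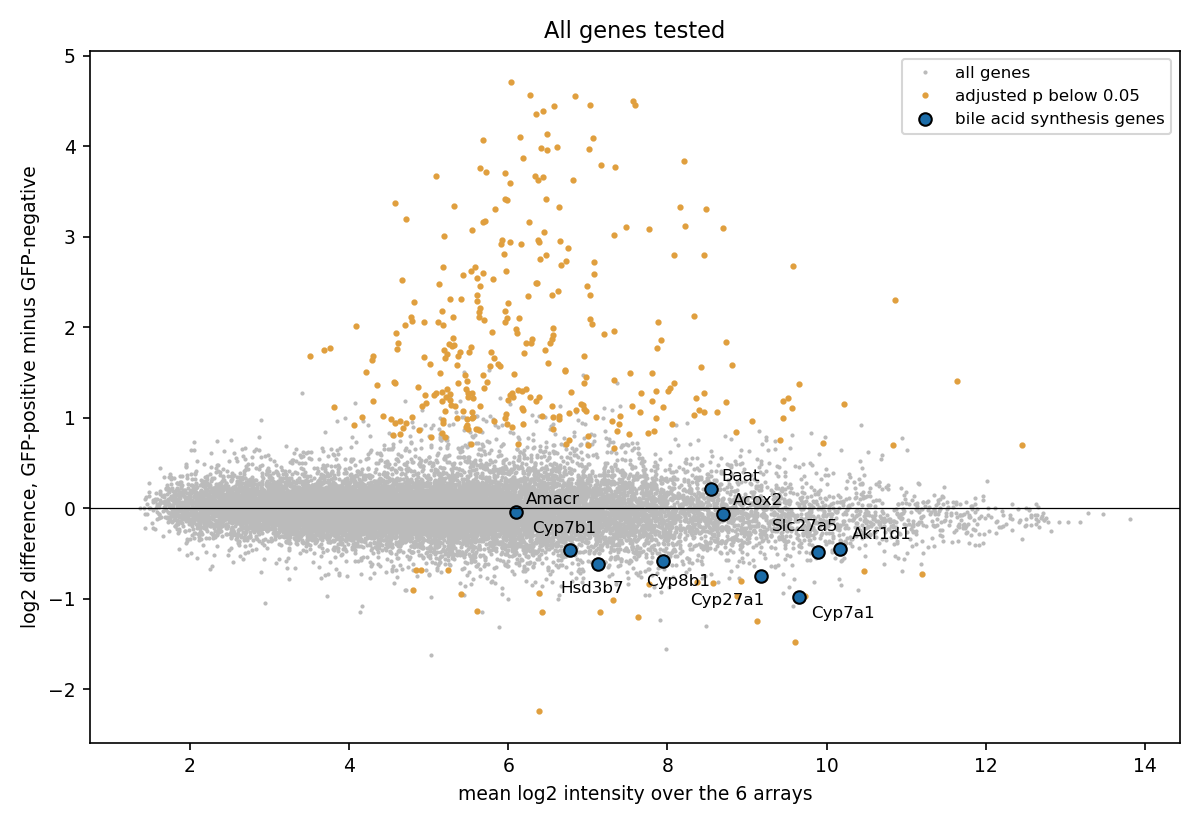
Log2 difference between GFP-positive and GFP-negative cells (vertical axis) against the mean log2 intensity over the 6 arrays (horizontal axis) for the 19938 genes, with called genes in orange and the bile acid synthesis genes in blue and named. Called genes are mostly above 0 (310 higher, 23 lower), and 9 of the 10 named genes lie below 0.

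A list of 20 further genes of bile acid synthesis, precursor supply and side chain shortening had 17 measured members. None passed in either direction, and the median difference was -0.21. Below 0 lay 16 of 17, against 55.72% of all genes and 8 of 9 hepatocyte markers. All GFP-positive values lay below all GFP-negative ones in 5 of 17, against 6.98% of all genes and 3 of 9 hepatocyte markers. Cyp39a1, which encodes the 7-alpha-hydroxylase of 24-hydroxycholesterol, was the exception in sign among the 17. It stood at 9.38, 9.32 and 9.47 in GFP-positive cells, against 8.83, 9.03 and 8.92 in GFP-negative cells, with no overlap and a difference of 0.46 ± 0.13 that did not pass (adjusted p = 0.21). The largest differences below 0 were those of Acaa1b, a peroxisomal thiolase gene (-0.56 ± 0.18, adjusted p = 0.27), and Scp2, whose protein includes the thiolase that ends side chain shortening (-0.56 ± 0.27, adjusted p = 0.61). Number 2 gave Scp2 values of 10.06 for GFP-positive cells and 10.88 for GFP-negative cells. These lay below the other arrays of the same group, as did those of Cyp7b1. With the replicate number as a block in limma the SE of Scp2 was 0.16, and the adjusted p was 0.22.

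Of 20 regulators of the pathway 18 were measured, and none passed in either direction (median -0.12, or 0.02 without number 2). Nr0b2, which encodes the repressor SHP, stood at 7.10, 5.61 and 6.85 in GFP-positive cells, against 7.76, 7.01 and 7.25 in GFP-negative cells. It was lower in GFP-positive cells of each number, by -0.66, -1.39 and -0.40, but the groups overlapped (-0.82 ± 0.35, adjusted p = 0.55). With the replicate number as a block in limma the SE of Nr0b2 was 0.21, and the adjusted p was 0.13. Nr1i3, the gene of the receptor CAR, had a difference of -0.45 ± 0.24 (adjusted p = 0.66), and Nr1h3, the gene of the sterol receptor LXR-alpha, one of 0.36 ± 0.16 (adjusted p = 0.58). The receptor and factor genes Nr1h4 (FXR), Nr5a2 (LRH-1) and Hnf4a differed by -0.20 ± 0.20, 0.08 ± 0.16 and 0.02 ± 0.22, each less than 1.5 times its SE.

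Cyp7a1 is expressed mainly by pericentral hepatocytes, those around the central vein. The 16 measured genes of that zone included 4 that fell and none that rose, against 0.115% and 1.55% of all genes. Their median difference was -0.63 (-0.52 without number 2). Of the 16, 15 lay below 0 and 11 had all GFP-positive values below all GFP-negative ones. Of 12 measured periportal genes, those of hepatocytes around the portal vein, none passed, with a median of 0.08 (0.28 without number 2). Genes that mark hepatocytes as such, 9 measured of 10 with Alb at 13.22 to 13.32 in the GFP-positive group and 13.25 to 13.34 in the GFP-negative group, differed by -0.18 to 0.02 (median -0.13), and none passed. The part of zone in the values of the 10 genes was not tested.

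Markers of Kupffer, endothelial and stellate cells summed to less on every GFP-positive array than on any GFP-negative one. The summed linear intensity was 175 to 193 for GFP-positive cells and 204 to 252 for GFP-negative cells over 9 Kupffer cell markers, of which 1 fell. The Kupffer markers were mixed in sign, with 5 of 9 below 0 and differences from -0.68, for Clec4f, the gene that fell, to 0.18. Clec4f read 4.83 to 4.99 in GFP-positive cells and 5.52 to 5.65 in GFP-negative cells. Vsig4 read 5.98 on GFP-negative 2, against 2.81 and 3.83 on the other GFP-negative arrays. The Kupffer sums thus leaned on single genes. The sum was 296 to 309 against 324 to 428 for 8 endothelial markers and 261 to 307 against 357 to 417 for 8 stellate cell markers, of which none passed. Below 0 lay 6 of 8 endothelial and 7 of 8 stellate cell markers. Sums overlapped between GFP-positive and GFP-negative cells for 5 cholangiocyte (111 to 121 against 112 to 124), 6 lymphoid (94.4 to 103 against 82.8 to 116) and 3 erythroid markers (116 to 161 against 116 to 226). For comparison the sum over the 10 bile acid synthesis genes was 3693 to 4357 for GFP-positive cells and 5121 to 6421 for GFP-negative cells. No marker is listed at 0, since these intensities have no zero level, and 6 of 9 Kupffer, 4 of 5 cholangiocyte and 5 of 6 lymphoid markers lay below the array medians in both groups. The part of such cells in the values above was not tested.

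**Figure D4:**
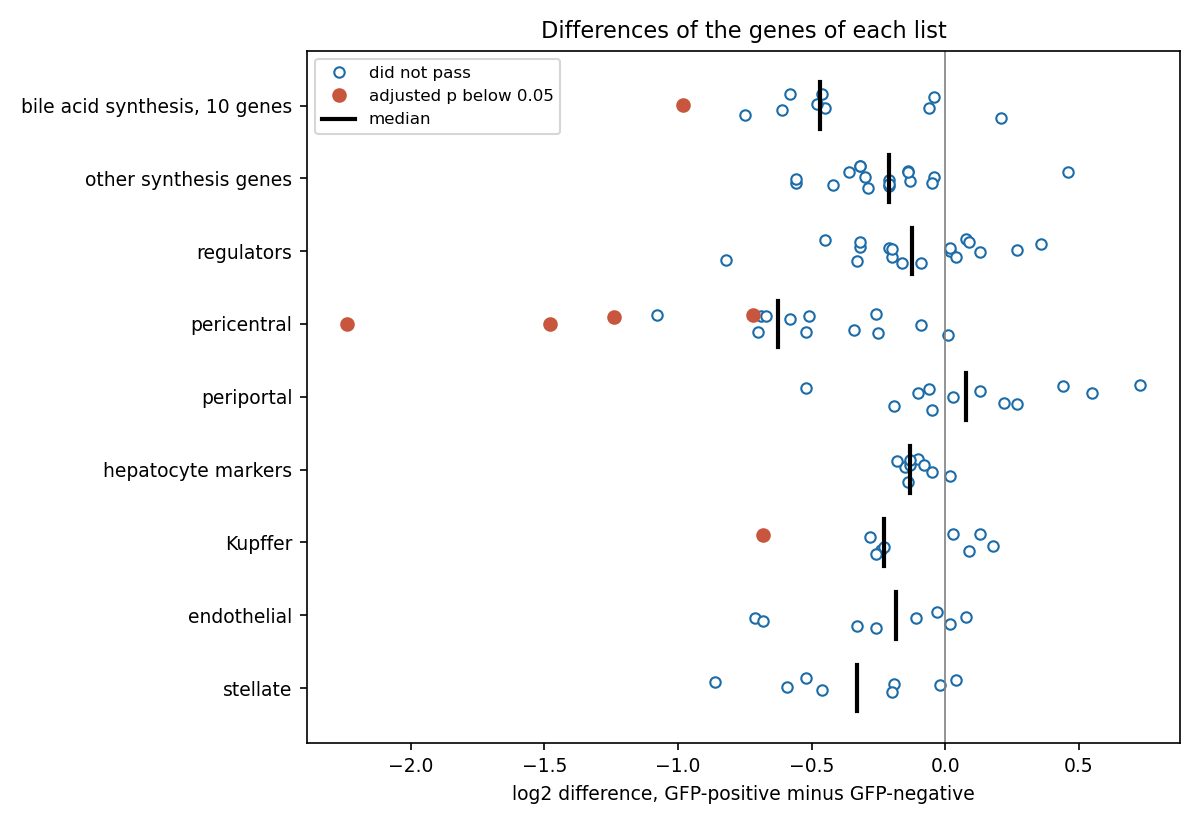
Log2 difference between GFP-positive and GFP-negative cells (horizontal axis) for each measured gene of 9 lists, with filled points for genes at an adjusted p below 0.05, open points for the others and black bars at the medians. The median is -0.47 for the 10 bile acid synthesis genes, -0.63 for the pericentral and 0.08 for the periportal genes.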

How the data were processed

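The deposited values are intensities per probe set and array that the authors made with RMA, per the submitters' processing notes, from RNA amplified from 10 ng per sample, per the labels' protocols. RMA's version and settings were not given in the sources used here. The deposited intensities are linear (1.62 to 15836), so log2 was taken, with no further normalization or filter. Only the 21789 of 35512 probe sets with 1 gene symbol were named (1621 have several, 12102 none), with symbols updated by Entrez identifier, and the brightest probe set on average stood for a gene.

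Groups were compared with limma 3.58.1 (R 4.3.3, eBayes with 4 residual and 5.44 prior degrees of freedom) and Benjamini-Hochberg adjustment over all 19938 genes. The fit was tested on simulated data drawn independently for each array, without livers shared between arrays. That test required recovery only of shifts of 3 log2 units, larger than any difference of the 10 genes. Gene pairs were compared by exact permutation of arrays, and by exact sign flips over replicate numbers, in Python 3.11.15. Members, lists, tests and motifs were chosen with earlier results of these data known. All 10 members are named, as are the 3 largest differences and any called gene among the other synthesis genes and the regulators, and the 5 genes most like Cyp7a1. Cdk1, Top2a, Alb, Nr1h4, Nr5a2, Hnf4a, Clec4f and Vsig4 were named after their values were seen. Listed symbols without a match were not analysed here. Replicate numbers were read as mice because the design text takes both fractions from the same 3 livers. The labels do not state this for the numbers. Across genes, same-numbered arrays had correlations of deviations of 0.20, 0.06 and -0.05, so the reading rests on the design text and, for number 2, on sex-linked genes. Precision is limited by the number of arrays.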

Additional observations from a re-analysis of the deposited data

How the results depend on the processing

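Of the 16 alternatives, 12 kept the call of Cyp7a1, whose difference ranged from -1.07 to -0.78 with an adjusted p of 0.0075 to 0.098. The number of the 10 genes called lower, 1, was 0 with all probe sets tested alone, 0 without both arrays of number 2 and between 0 and 1 when single arrays were left out. None of the 10 was called higher under any alternative, and the other 9 were not called under any. With the replicate number as a block, which leaves 2 residual degrees of freedom, Cyp7a1 had an adjusted p of 0.032, 327 genes were higher and 28 lower, and no call among the 10 changed. The count of lower genes, 23, was 38 with quantile normalization, 13 with arrays centred on their medians, 6 with all probe sets tested alone, 53 with array weights, 9 without both arrays of number 2 and between 6 and 29 without single arrays. Differences near 0 turned sign when single arrays were left out, ranging from -0.12 to 0.08 for Amacr and from -0.19 to 0.10 for Acox2. The mean of the alternative route ranged from -0.79 to -0.28 and the ratio of Cyp7a1 to Cyp7b1 from -0.91 to 0.03, the last without GFP-negative 2, the array with the lowest GFP-negative Cyp7b1. The median of the 10 differences, -0.47, was -0.27 without both arrays of number 2, an alternative to that median chosen after the data were seen. With 3 arrays a group and no detection calls, small differences and signals near background cannot be resolved.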
